A study of Rattus norvegicus with 6 samples.

Results

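The unfolded protein and heat shock genes are the chaperones, folding enzymes and regulators that cells use when proteins misfold or when translation is restrained. A list of 37 rat genes was drawn up by name and sorted into 3 branches: 15 genes of the endoplasmic reticulum (ER) branch, 9 of the integrated stress branch and 13 of the cytosolic branch. Of these, 33 had a probe named for them on the array and all 33 passed the detection filter, out of 30229 genes tested and 15645 gene symbols with a probe. Manf and Edem1 of the ER branch and Hspa1b and Dnajb1 of the cytosolic branch had no probe named for them and were not analysed here. The question was how these genes stood in the renal cortex of rats given monuron, a phenylurea herbicide, for 4 weeks. The monuron group held 3 male Sprague-Dawley rats (Crl:CD(SD)) given 200 mg/kg/day, and the corn oil group held 3 such rats given the vehicle over the same 4 weeks. Rats of both groups were 5 weeks old when bought and ate a basal diet. One 1-colour microarray was run per rat on RNA of the whole cortex, a mixture of tubule segments, glomeruli, vessels and blood.

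Secretory and membrane proteins fold in the ER with the help of lumenal chaperones, and when these are overtaxed the sensors IRE1, PERK and ATF6 start the unfolded protein response. IRE1 splices Xbp1 RNA, ATF6 is cut to release a transcription factor, and PERK phosphorylates the translation factor eIF2 alpha. Other kinases phosphorylate the same factor when amino acids or heme run short or double-stranded RNA appears, and the shared outcome, the integrated stress response, favours translation of ATF4, which turns on genes of amino acid supply. Misfolded proteins in the cytosol instead free the factor HSF1, which binds heat shock elements and raises the HSP70, HSP90 and small heat shock proteins. The kidney tubule is rich in secreted, membrane and endocytosed proteins and makes serine for the circulation.

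On each array 60.9% to 70.4% of the 61537 probes for transcripts were detected well above background. Levels below are log2 of the processed signal over the array's 75th percentile, so they can be set side by side between arrays but not between genes, whose probes differ. The monuron arrays were on a single slide and the corn oil arrays on another, and slide, scan and treatment cannot be told apart. The 12 proximal tubule markers, which define most of the cortex, were all well above background on all 6 arrays. Hepatocyte transcripts were present in uneven amounts: the mean level of 19 liver markers was 0.83, -0.32 and -0.52 log2 units on monuron arrays 1 to 3, against -1.15, -1.14 and 0.18 on corn oil arrays 1 to 3. Over all genes, limma called 287 higher (0.949%) and 125 lower (0.414%) in monuron cortex at an adjusted p under 0.05, and the median difference was 0.02 log2 units.

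None of the measured stress genes was called: 0 of 33 passed limma's adjusted threshold in either direction, against 0.949% of all genes higher and 0.414% lower. At an unadjusted p under 0.05, 8 of the 33 were higher (24.2%, against 10.9% of all genes) and 3 were lower (9.09%, against 6.73%). The median difference over the 33 genes was 0.08 log2 units. Values of the groups did not overlap for 8 genes with monuron higher (24.2%, against 15.5% of all genes) and for 4 with monuron lower (12.1%, against 10.3%). The adjusted p nearest to the threshold was 0.0527 for Cryab, whose fitted difference of 1.49 log2 units was also the largest of the 33. The next were 0.102 for Shmt2, 0.114 for Asns and 0.145 for Hsp90ab1. The array reads RNA of bulk tissue, so fewer cells of a type and less RNA per cell cannot be told apart. With normexp background correction and quantile normalization, and with limma's trended, robust variance, 1 gene was called higher (Cryab) and 1 lower (Shmt2). Scaling on the 8 spike-in probes called 1 of the 33 higher and 22 lower. That setting called 1.04% of all genes higher and 66.5% lower.

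**Figure D1:**
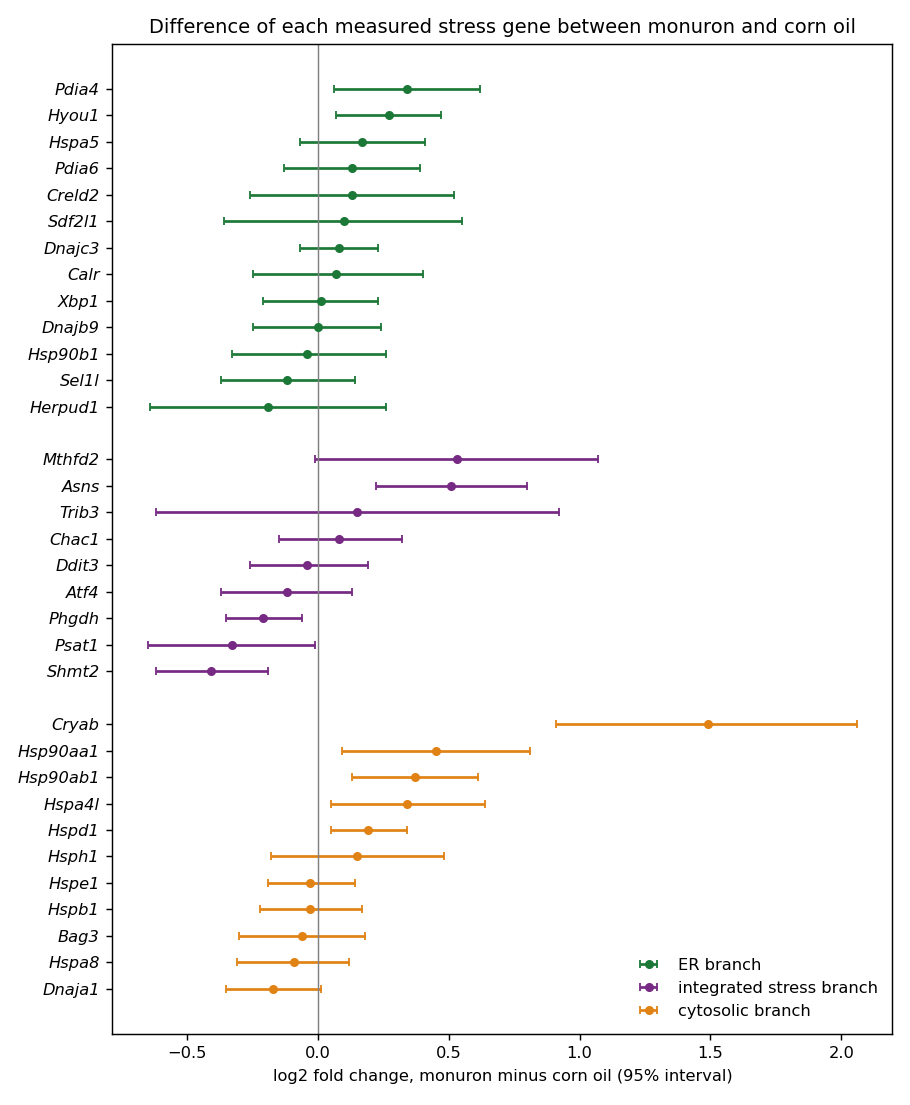
Log2 fold change of each of the 33 measured genes, monuron minus corn oil, with its 95% interval from limma (horizontal axis) on the 75th percentile scale; genes run down the page by branch and by size. Cryab stands apart at 1.49, and the other 32 genes lie between -0.41 and 0.53. With scaling on the spike-in probes 22 of the 33 are called lower, where 66.5% of all genes are. Of those 22, 8 have a sign opposite to that drawn.

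In the ER branch the chaperones Hyou1 and Hspa5 and the isomerase Pdia4 were higher on each monuron array than on any corn oil array. Their group means were 1.12 to 1.26 times as high in monuron cortex, and Xbp1 differed little. Of the 13 genes, 9 had fitted differences above 0 and 4 below, and the median was 0.08 log2 units, against 0.02 for all genes. At an unadjusted p under 0.05, 2 of 13 were higher (15.4%, against 10.9%) and 0 lower. Groups did not overlap for 3 of 13 with monuron higher (23.1%, against 15.5%) and for 0 with monuron lower. Scaling on spike-in probes moved the median of all genes to -0.46 and that of the branch to -0.40, and without scaling they were 0.11 and 0.17.

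Of the 13 promoters of this branch found, 8 hold an element of the kind that ATF6 and XBP1 bind, and binding was not measured here. Those of Hspa5 and Hyou1 are shown as examples of the 2 forms of the element in genes whose groups did not overlap. Sequences are the 250 bases before the gene start in RefSeq's GRCr8 annotation, in the gene's direction, with the element in capitals. Hspa5 lies on the plus strand at chr3:38452766-38453015, and its capitals mark the ER stress element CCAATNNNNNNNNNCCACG.
Hspa5: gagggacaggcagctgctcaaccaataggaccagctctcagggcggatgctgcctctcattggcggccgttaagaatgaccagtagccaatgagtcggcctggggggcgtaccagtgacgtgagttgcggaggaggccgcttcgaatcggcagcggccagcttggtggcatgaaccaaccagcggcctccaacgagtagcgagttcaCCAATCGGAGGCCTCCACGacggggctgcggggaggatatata
Hyou1 lies on the plus strand at chr8:53602632-53602881, and its capitals mark 2 copies of the ER stress element II, ATTGGNCCACG, both read on the opposite strand.
Hyou1: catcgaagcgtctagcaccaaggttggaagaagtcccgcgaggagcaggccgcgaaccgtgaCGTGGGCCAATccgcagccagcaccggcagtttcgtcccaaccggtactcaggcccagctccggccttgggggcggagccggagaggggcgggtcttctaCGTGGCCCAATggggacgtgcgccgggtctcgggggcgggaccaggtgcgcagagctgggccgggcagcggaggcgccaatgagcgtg
Searched on both strands of the 33469 promoters of that annotation, the first element was in 22 (0.0657%) and the second in 14 (0.0418%). Of the 13 ER branch promoters found, 6 held the first (Hspa5, Xbp1, Hsp90b1, Calr, Creld2 and Dnajc3) and 2 the second (Herpud1 and Hyou1), while the 9 integrated stress and 10 cytosolic promoters held 0 of either. The 8 measured genes with an element had a median difference of 0.08 log2 units, with a range of -0.19 to 0.27. The 4 measured genes whose window held neither (Dnajb9, Sdf2l1, Pdia4 and Sel1l) had a median of 0.05, with a range of -0.12 to 0.34. The ranges of both sets overlapped.

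Hyou1, which encodes the lumenal chaperone ORP150 that helps Hspa5 release its nucleotide, read 3.04, 3.18 and 3.28 on the monuron arrays, against 2.90, 2.88 and 2.92 on the corn oil arrays. Each monuron array lay above all corn oil arrays, which sat within a narrow band. The difference was 0.27 ± 0.08 log2 units (SE, n = 3 per group), or 1.20-fold with a 95% interval of 1.05 to 1.39, with an adjusted p of 0.187. A second, much dimmer Hyou1 probe gave 0.06 ± 0.14. Pdia4, a disulfide isomerase that forms and rearranges disulfide bonds in new proteins, read -0.56, -0.44 and -0.17 in monuron cortex, against -0.78, -0.67 and -0.74 in corn oil cortex. The groups did not overlap, and the difference was 0.34 ± 0.11 (1.26-fold, 95% interval 1.04 to 1.53, adjusted p 0.218).

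Hspa5 encodes BiP, the HSP70 of the ER, which binds unfolded chains and holds the stress sensors inactive. Its levels were 5.25, 5.29 and 5.56 on monuron arrays, against 5.18, 5.19 and 5.22 on corn oil arrays. The monuron arrays were again all above the corn oil arrays, the lowest of them by 0.03 log2 units, and the difference of 0.17 ± 0.10 (1.12-fold, 95% interval 0.950 to 1.33) had an adjusted p of 0.435. Hsp90b1, the HSP90 of the ER (GRP94), differed by -0.04 ± 0.12 (adjusted p 0.908). Calr, the lectin chaperone calreticulin, differed by 0.07 ± 0.13 (adjusted p 0.812). The 95% intervals of these 3 chaperones all held 0.

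The other folding factors were uneven between arrays. Pdia6, another disulfide isomerase, read 3.94, 3.84 and 4.16 in monuron cortex and 3.94, 3.76 and 3.84 in corn oil cortex (0.13 ± 0.10, adjusted p 0.560). Sdf2l1, which serves in a chaperone complex with BiP, read 1.98, 1.98 and 2.57 on monuron arrays and 2.13, 1.92 and 2.21 on corn oil arrays (0.10 ± 0.19, adjusted p 0.830). Creld2, a secreted ER stress protein, read 0.36, 0.35 and 0.80 on monuron arrays and 0.22, 0.36 and 0.55 on corn oil arrays (0.13 ± 0.16, adjusted p 0.712). In these 3 genes monuron array 3 was the highest of the 6, and arrays 1 and 2 lay inside or near the corn oil range. The 3 probes of Sdf2l1 gave 0.10 to 0.15. Dnajc3, which encodes the BiP co-chaperone p58IPK that also restrains PERK, differed by 0.08 ± 0.06 (adjusted p 0.552), and Dnajb9, a BiP co-chaperone that represses IRE1, by -0.00 ± 0.10 (adjusted p 0.996).

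Xbp1, the factor whose RNA IRE1 splices, read 2.29, 2.28 and 2.11 in monuron cortex, against 2.12, 2.20 and 2.33 in corn oil cortex. The groups overlapped fully, and the difference of 0.01 ± 0.09 had a 95% interval of -0.21 to 0.23, that is 0.866 to 1.17 times; its splicing was not measured here. Herpud1, a membrane protein of ER-associated degradation, read 3.19, 3.82 and 3.44 in monuron cortex and 3.46, 3.81 and 3.75 in corn oil cortex (-0.19 ± 0.18, adjusted p 0.629). Monuron array 2 matched the highest corn oil array while array 1 was the lowest of all, and a second probe gave -0.28 ± 0.19. Sel1l, the adaptor of the degradation ligase Hrd1, differed by -0.12 ± 0.10 (adjusted p 0.600), with -0.35 ± 0.13 on a second probe.

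One array had a large part in the ER values. Monuron array 3 was the highest of the 6 for 8 of the 13 genes (61.5%), against 19.9% of all genes. The mean of the 13 genes, relative to corn oil, was -0.02, 0.04 and 0.20 log2 units on monuron arrays 1 to 3, against -0.03, -0.04 and 0.06 on corn oil arrays 1 to 3. Only monuron array 3 thus stood clear of the corn oil range. Without that array the branch median was 0.01, and it was also 0.01 without corn oil array 2. Red cell transcripts were higher in monuron cortex: 8 erythroid markers were measured, 5 were called higher, the median difference of the 8 was 1.15, and the called ones were Alas2, of heme synthesis, the globins Hbb, Hbb-b1 and Hba-a1, and the factor Klf1, by 0.90 to 1.90. The summed level of the 8 was 1508 to 1619 times the 75th percentile on monuron arrays, against 637 to 884 on corn oil arrays. Of these 8, 6 were highest on monuron array 3, and their part in the stress gene values was not tested. Of 10 plasma and B cell markers, whose cells have a large ER, 4 were measured, 0 were called, and their summed level was 4.25 to 4.61 in monuron cortex, against 3.89 to 4.79 in corn oil cortex.

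**Figure D2:**
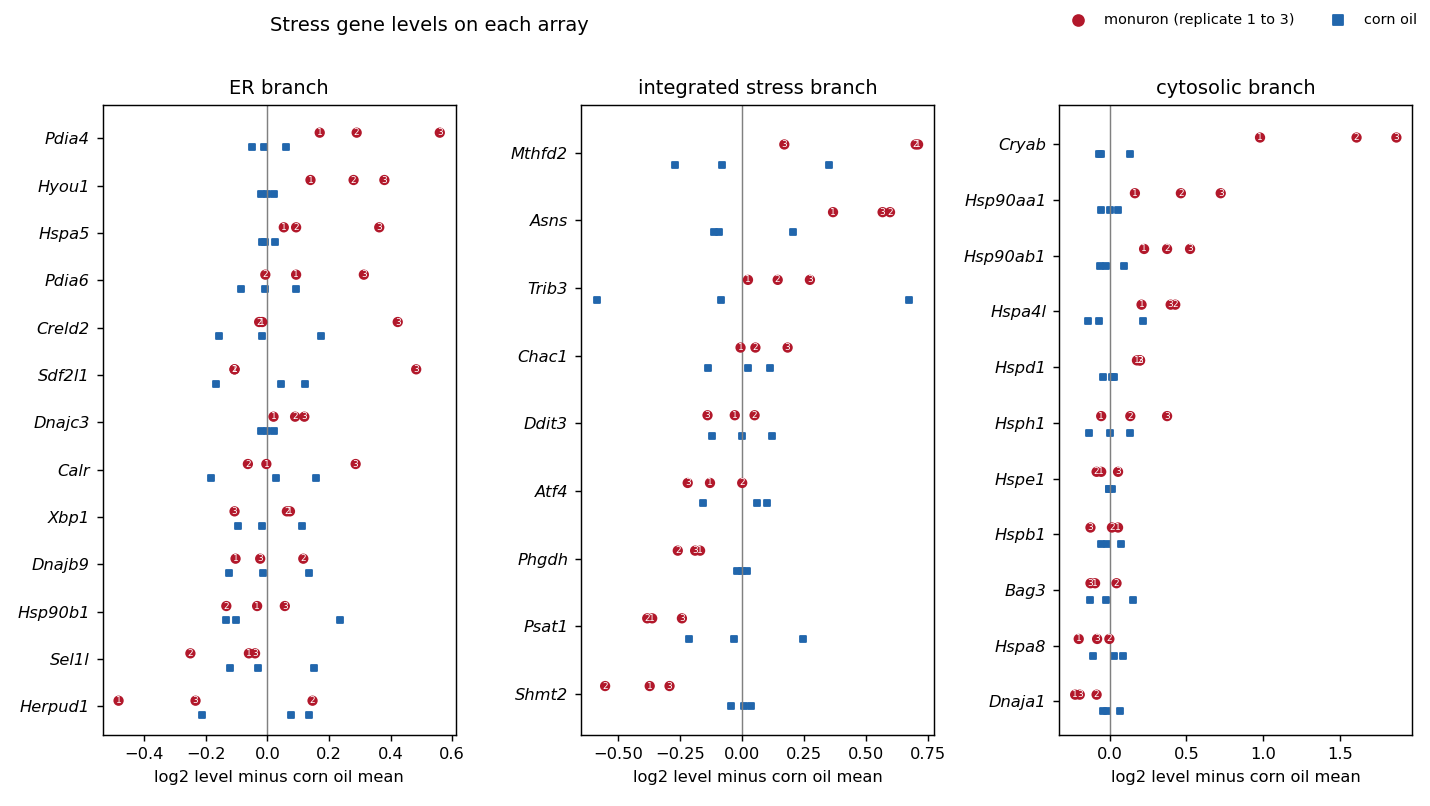
Level of each measured gene on each array (log2, minus the corn oil mean, horizontal axis) in the 3 branches, with monuron as numbered circles above and corn oil as squares below, on the 75th percentile scale. Monuron array 3 lies farthest to the right in 8 of 13 ER genes and 5 of 11 cytosolic genes, and in 1 of 9 integrated stress genes.

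Outside the listed members, 16 sensors and regulators of the response were measured and 0 were called, with a median of -0.01. Ppp1r15a, which encodes GADD34, the subunit that directs removal of phosphate from eIF2 alpha, read 1.11, 1.17 and 1.30 in monuron cortex, against 0.89, 0.74 and 0.80 in corn oil cortex (0.38 ± 0.08, adjusted p 0.100). The groups did not overlap. Creb3l3, an ER-anchored transcription factor best known from liver, read 2.20, 1.24 and 1.56 in monuron cortex, against 3.24, 2.57 and 2.83 in corn oil cortex (-1.22 ± 0.29, adjusted p 0.122), also without overlap. The sensors themselves differed by 0.12 ± 0.11 (Ern1, encoding IRE1), 0.03 ± 0.08 (Eif2ak3, encoding PERK) and -0.04 ± 0.15 (Atf6). The Ern1 probe was dim, with a mean of -5.05 in monuron and -5.18 in corn oil cortex. Only 1 corn oil array detected Ern1 clearly, so its corn oil levels are partly near the detection limit. Its small difference therefore cannot show whether Ern1 RNA was unchanged.

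Of 30 further folding and glycoprotein genes 0 were called, with a median of -0.00; 4 were higher (13.3%, against 10.9%) and 2 lower (6.67%, against 6.73%) at an unadjusted p under 0.05. Sil1, the nucleotide exchange factor of BiP, differed by -0.33 ± 0.08, and Ero1a, the oxidase that recharges disulfide isomerases, by 0.27 ± 0.08. Fkbp11, an ER prolyl isomerase, differed by -0.24 ± 0.06, and Lman1, a cargo receptor for export from the ER, by 0.26 ± 0.09. Of 29 genes of ER-associated degradation and translocation 0 were called, with a median of 0.01. The 2 with an unadjusted p under 0.05 were Ssr1, of the translocon-associated complex (0.25 ± 0.08), and Spcs3, of the signal peptidase (0.42 ± 0.16). Those 2 are 6.90% of the list, against 10.9% of all genes, and 0 were lower. Groups of the folding list did not overlap for 5 with monuron higher (16.7%, against 15.5%) and for 6 with monuron lower (20.0%, against 10.3%).

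In the integrated stress branch, genes that are usually listed together as ATF4 targets differed in opposite directions. Asns was higher and Shmt2, Phgdh and Psat1 were lower on every monuron array than on any corn oil array, and Atf4 and Ddit3 differed little. Of the 9 genes, 4 had differences above 0 and 5 below, and the median was -0.04 (0.05 without scaling, and -0.52 with spike-in scaling, where the median of all genes was -0.46). At an unadjusted p under 0.05, 1 of 9 was higher (11.1%, against 10.9%) and 3 lower (33.3%, against 6.73%). Non-overlapping groups counted the same genes: 1 with monuron higher (11.1%, against 15.5%) and 3 with monuron lower (33.3%, against 10.3%).

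The shared regulators come first. Atf4, the transcription factor of the branch, read 4.40, 4.53 and 4.31 in monuron cortex, against 4.63, 4.59 and 4.37 in corn oil cortex. The ranges overlapped, and the difference was -0.12 ± 0.10 (95% interval -0.37 to 0.13, adjusted p 0.588); ATF4 is controlled largely at translation, which an RNA array does not read. Ddit3, which encodes the stress factor CHOP, read 2.86, 2.94 and 2.75 in monuron cortex, against 2.89, 3.01 and 2.77 in corn oil cortex (-0.04 ± 0.09, adjusted p 0.863), and its second probe gave -0.05 ± 0.09. Its 95% interval of -0.26 to 0.19 corresponds to 0.833 to 1.14 times the corn oil level.

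Trib3, a pseudokinase and target of ATF4 and CHOP, and Chac1, which breaks down glutathione, are the targets whose promoters held the amino acid response element TGATGNAA. That element was in 3.40% of all promoters and in 2 of the 9 of this branch. It was also in 1 of the 13 ER branch promoters (Herpud1) and in 0 of the 10 cytosolic promoters. The Trib3 window, chr3:161275534-161275783 on the minus strand, is shown as the example, with the element, read on the opposite strand, in capitals.
Trib3: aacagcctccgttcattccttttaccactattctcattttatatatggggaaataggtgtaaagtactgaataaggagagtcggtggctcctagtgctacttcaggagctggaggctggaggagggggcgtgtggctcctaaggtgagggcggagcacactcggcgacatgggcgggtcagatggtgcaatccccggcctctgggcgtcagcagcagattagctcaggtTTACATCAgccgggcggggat
Trib3 read -3.97, -3.85 and -3.72 in monuron cortex, against -3.32, -4.08 and -4.58 in corn oil cortex. The corn oil arrays spread across the whole monuron range and beyond, and the difference was 0.15 ± 0.31 (95% interval -0.62 to 0.92, adjusted p 0.845). Chac1 depended on the probe. The brighter one, taken for the gene, differed by 0.08 ± 0.10 (adjusted p 0.697), while a dimmer one read -4.54, -4.57 and -4.51 on monuron arrays, against -5.33, -6.16 and -5.75 on corn oil arrays, a difference of 1.21 ± 0.21 with an adjusted p over all probes of 0.0675. The dimmer probe was well above background on 4 of the 6 arrays, so its corn oil levels are partly near the detection limit; the third probe was not well above background on any array.

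Asns, asparagine synthetase, read -0.49, -0.26 and -0.29 in monuron cortex, against -0.65, -0.95 and -0.97 in corn oil cortex. All monuron arrays were above all corn oil arrays, and the difference was 0.51 ± 0.12, or 1.43-fold (95% interval 1.17 to 1.75, adjusted p 0.114). Mthfd2, a mitochondrial folate enzyme of one-carbon supply, read -1.48, -1.49 and -2.02 in monuron cortex, against -2.46, -2.27 and -1.84 in corn oil cortex. Monuron array 3 fell below the highest corn oil array, so the groups overlapped, and the difference was 0.53 ± 0.22 (1.45-fold, 95% interval 0.996 to 2.10, adjusted p 0.288). All 5 Mthfd2 probes differed upward, by 0.41 to 1.21, and none of the other 4 was well above background on all 6 arrays. Each of those 4 thus passed the detection filter through 1 group only. Such a filter favours a difference toward the group that passed, so their common sign is not independent support. Under spike-in scaling Asns and Mthfd2 stood at 0.03 and 0.05, above the all-gene median of -0.46.

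The members that make or use serine were Shmt2, Phgdh and Psat1, none of which was called. Shmt2, the mitochondrial enzyme that converts serine to glycine, read 3.53, 3.35 and 3.61 in monuron cortex, against 3.94, 3.86 and 3.91 in corn oil cortex. The highest monuron array lay 0.25 below the lowest corn oil array, and the difference of -0.41 ± 0.09 was a 1.33-fold lower level (95% interval 1.14 to 1.54, adjusted p 0.102). Phgdh, the first enzyme of serine synthesis, read 6.75, 6.66 and 6.73 in monuron cortex, against 6.94, 6.90 and 6.92 in corn oil cortex. Both groups were tight and did not overlap, with -0.21 ± 0.06 (1.15-fold lower, adjusted p 0.176) and -0.31 ± 0.07 on a second probe. Psat1, the next enzyme of that pathway, read 5.28, 5.26 and 5.40 in monuron cortex, against 5.43, 5.61 and 5.89 in corn oil cortex (-0.33 ± 0.13, 1.26-fold lower, adjusted p 0.267), with -0.26 ± 0.10 on a second probe. The groups again did not overlap, though by only 0.03 log2 units. Psph, the last enzyme of serine synthesis counted among the other ATF4 targets, differed by -0.06 ± 0.14 (adjusted p 0.864), with overlap.

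Of 12 proximal tubule markers measured, 9 had differences below 0 and 3 above, and 0 were called. At an unadjusted p under 0.05, 4 were lower (33.3%, against 6.73% of all genes), and groups did not overlap for 5 with monuron lower (41.7%, against 10.3%). Their median difference was -0.19, and their summed level was 1606 to 1682 times the 75th percentile in monuron cortex, against 1798 to 1957 in corn oil cortex. Cubn and Lrp2, the endocytic receptors cubilin and megalin, differed by -0.69 ± 0.12 and -0.52 ± 0.10, and the transporters Slc7a13 and Slc22a7 by 1.04 ± 0.51 and 0.51 ± 0.28. The part of these cells in the levels of Shmt2, Phgdh and Psat1 was not tested.

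**Figure D3:**
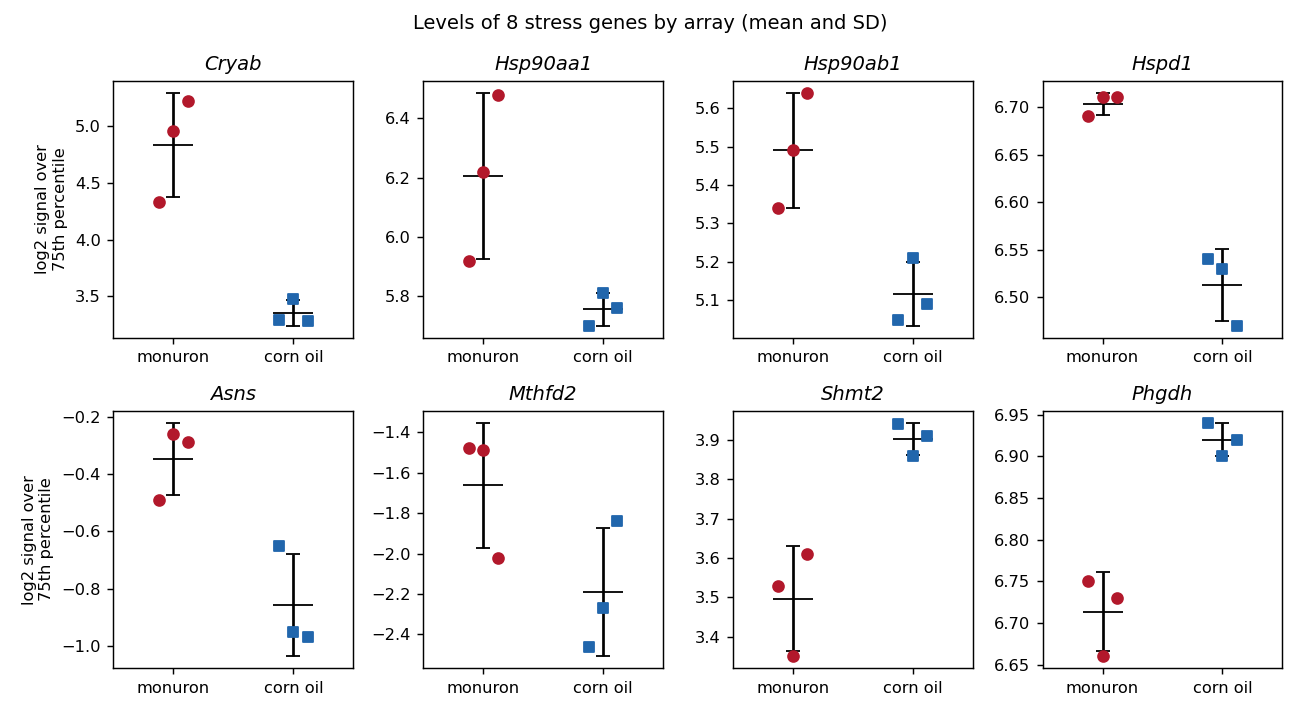
Levels of 8 genes on each array (vertical axes, log2 of the signal over the array's 75th percentile, not starting at 0), with monuron left and corn oil right; bars are the mean and SD over 3 arrays. Cryab, both Hsp90 genes, Hspd1 and Asns lie higher and Shmt2 and Phgdh lower on all 3 monuron arrays, Mthfd2 overlaps, and with spike-in scaling the differences of Hsp90aa1, Hsp90ab1 and Hspd1 turn to -0.04, -0.11 and -0.29.

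Of 27 other ATF4 targets measured, 1 was called, and their median difference was 0.03. It was Gdf15, a stress hormone of the TGF-beta family, which read 1.47, 1.59 and 1.49 in monuron cortex, against 0.29, 0.02 and -0.06 in corn oil cortex, and was 2.70-fold higher (1.43 ± 0.11, adjusted p 0.00913). A pair of mitochondrial folate enzymes related to Mthfd2 differed in opposite directions: Aldh1l2 by 0.68 ± 0.16 (adjusted p 0.115) and Mthfd1l by -0.60 ± 0.13 (adjusted p 0.110). The Mthfd1l probe was dim, with a mean of -5.40 in monuron and -4.79 in corn oil cortex. Only 2 corn oil arrays detected it clearly, so its levels are partly near the detection limit and the contrast is uncertain. Sqstm1, the autophagy receptor p62, differed by 0.39 ± 0.10 (adjusted p 0.142). Atf3, an early stress factor, read -0.20, -0.34 and -0.96 in monuron cortex, against -0.69, -1.22 and -0.97 in corn oil cortex (0.46 ± 0.24, adjusted p 0.380), with overlap. Of 20 aminoacyl-tRNA synthetases, which charge tRNAs and are induced through ATF4 in amino acid shortage, 0 were called and the median was 0.05. Gars1 had the smallest p among them (0.22 ± 0.07).

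In the cytosolic branch the small heat shock protein Cryab and the HSP90 pair had the higher levels in monuron cortex. The heat-induced genes Hspb1 and Bag3 and the constitutive HSP70 gene Hspa8 differed little. Of the 11 measured genes 6 had differences above 0 and 5 below, and the median was 0.15 log2 units, against 0.02 for all genes. At an unadjusted p under 0.05, 5 of 11 were higher (45.5%, against 10.9%) and 0 lower. Groups did not overlap for 4 of 11 with monuron higher (36.4%, against 15.5%) and for 1 with monuron lower (9.09%, against 10.3%). The median was 0.24 without scaling and -0.33 with spike-in scaling, where the median of all genes was 0.11 and -0.46.

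Cryab encodes alpha B-crystallin, a small heat shock protein that keeps unfolding proteins from clumping and is abundant in lens, muscle and kidney. It read 4.33, 4.96 and 5.22 in monuron cortex, against 3.29, 3.48 and 3.28 in corn oil cortex. The lowest monuron array exceeded the highest corn oil array by 0.85 log2 units, and the monuron arrays varied more (SD 0.46, against 0.11 in corn oil). The difference was 1.49 ± 0.23, or 2.80-fold (95% interval 1.88 to 4.17), with an unadjusted p of 0.000778, rank 446 of 30229, and an adjusted p of 0.0527. Across 22 other settings the difference ran from 1.00 to 1.74 and the adjusted p from 0.00791 to 0.178, and 6 settings called it, among them the one without monuron array 1, with an adjusted p of 0.0479.

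Markers of other cells that hold Cryab were read beside it. Of 8 muscle markers 5 were measured, and their summed level was 4.54 to 4.67 in monuron cortex, against 4.30 to 4.79 in corn oil cortex. Such sums weigh most on the brightest probe, which was that of Actc1 in this list. Acta1, skeletal muscle actin, was called higher (0.96 ± 0.10, adjusted p 0.0190) and Myh11, smooth muscle myosin, differed by -0.32 ± 0.09. The Acta1 probe was dim, with a mean of -4.03 in monuron and -4.99 in corn oil cortex. It was well above background on 3 monuron and 2 corn oil arrays, so it passed the detection filter through monuron alone. The 11 distal nephron and collecting duct markers had a median of -0.00 and a summed level of 460 to 648 in monuron cortex, against 471 to 620 in corn oil cortex, so ranges overlapped. Umod had the brightest probe of that list. Of 10 measured tubule injury markers 4 were called higher: Havcr1, which encodes KIM-1, by 3.75 ± 0.20, Gdf15, Spp1, osteopontin, by 1.11 ± 0.15, and Krt8, a keratin, by 0.55 ± 0.08. Havcr1 also passed the filter through monuron alone. Its corn oil mean was -5.29, with 2 corn oil arrays well above background, so the size of its difference is uncertain. The part of any of these cells or states in the level of Cryab was not tested.

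The HSP90 genes encode the chaperone that matures kinases and steroid receptors. Hsp90aa1, the stress-inducible form, read 5.92, 6.22 and 6.48 in monuron cortex, against 5.70, 5.81 and 5.76 in corn oil cortex (0.45 ± 0.15, 1.36-fold, 95% interval 1.06 to 1.75, adjusted p 0.211). Hsp90ab1, the constitutive form, read 5.34, 5.49 and 5.64 in monuron cortex, against 5.05, 5.21 and 5.09 in corn oil cortex (0.37 ± 0.10, 1.29-fold, 95% interval 1.10 to 1.53, adjusted p 0.145). Both genes were higher on each monuron array than on any corn oil array, with monuron array 3 the highest of the 6. The 6 Hsp90aa1 probes gave 0.45 to 0.63 and the 5 Hsp90ab1 probes 0.22 to 0.37, so no probe of either gene pointed downward on this scale. With spike-in scaling the tested probes stood at -0.04 and -0.11, above the all-gene median of -0.46.

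**Figure D4:**
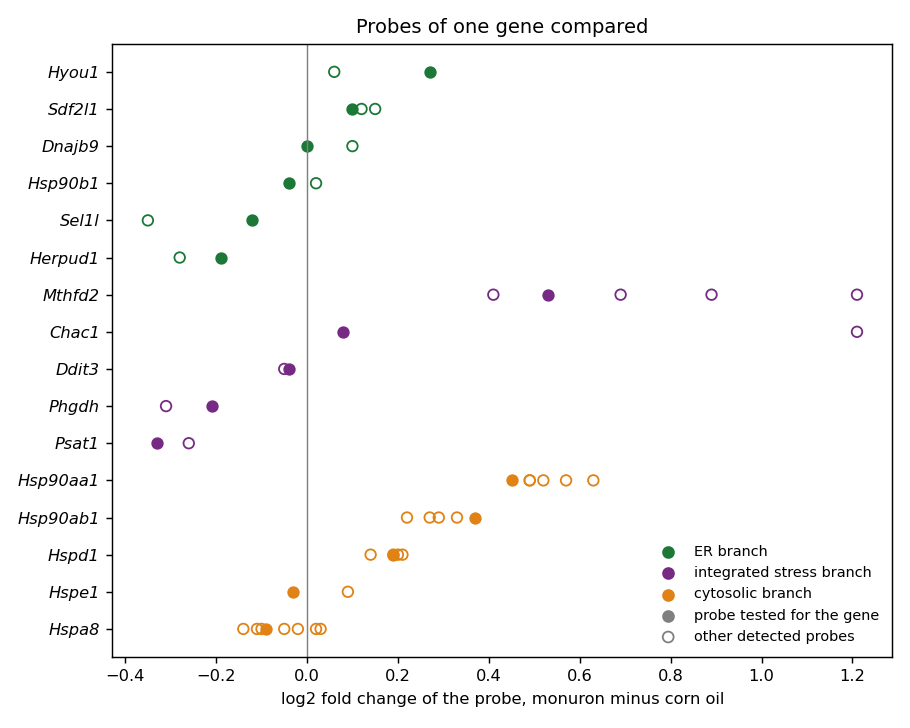
Log2 fold change of every detected probe (horizontal axis, monuron minus corn oil, 75th percentile scale) for the 16 genes with more than 1 detected probe; the filled point is the probe tested for the gene. Probes of Hsp90aa1, Hsp90ab1, Hspd1 and Mthfd2 all lie right of 0 on this scale, the 8 Hspa8 probes straddle it, and the probes of Chac1 lie 1.12 apart. The open Mthfd2 points are dim probes that passed the detection filter through 1 group only, which favours a common sign.

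The mitochondrial chaperonin is made of Hspd1 (HSP60) and its lid Hspe1 (HSP10). Hspd1 read 6.69, 6.71 and 6.71 in monuron cortex, against 6.54, 6.53 and 6.47 in corn oil cortex. The groups were tight and did not overlap (0.19 ± 0.06, 1.14-fold, 95% interval 1.03 to 1.26, adjusted p 0.193), and its 5 probes gave 0.14 to 0.21. Hspe1 read 7.13, 7.10 and 7.24 in monuron cortex, against 7.18, 7.18 and 7.20 in corn oil cortex (-0.03 ± 0.07, adjusted p 0.865), with 0.09 ± 0.08 on a second probe. Hspd1 and Hspe1 are neighbours read in opposite directions, and their 250-base windows share 211 bases at chr9:64084077-64084287. The difference between the partners was not tested.

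The Hspe1 window, which therefore serves both genes, is shown with those of Hsph1 and Hspa8 because they hold heat shock elements in both arrangements. Capitals mark GAANNTTC and TTCNNGAA, which overlap in each of the 3. Hspe1 is at chr9:64084077-64084326, Hsph1 at chr12:10427118-10427367 and Hspa8 at chr8:50080264-50080513, all on the plus strand of GRCr8.
Hspe1: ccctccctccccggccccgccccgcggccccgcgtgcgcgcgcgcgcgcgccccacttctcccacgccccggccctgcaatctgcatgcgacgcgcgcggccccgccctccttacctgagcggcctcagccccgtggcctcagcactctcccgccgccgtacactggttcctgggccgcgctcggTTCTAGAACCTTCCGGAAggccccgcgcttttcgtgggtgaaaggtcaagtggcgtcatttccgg
Hsph1: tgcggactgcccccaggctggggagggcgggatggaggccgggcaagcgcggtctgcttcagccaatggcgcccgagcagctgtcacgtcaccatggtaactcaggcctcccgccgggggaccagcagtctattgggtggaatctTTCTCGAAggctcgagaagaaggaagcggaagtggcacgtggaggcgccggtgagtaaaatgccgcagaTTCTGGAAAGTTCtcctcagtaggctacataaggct
Hspa8: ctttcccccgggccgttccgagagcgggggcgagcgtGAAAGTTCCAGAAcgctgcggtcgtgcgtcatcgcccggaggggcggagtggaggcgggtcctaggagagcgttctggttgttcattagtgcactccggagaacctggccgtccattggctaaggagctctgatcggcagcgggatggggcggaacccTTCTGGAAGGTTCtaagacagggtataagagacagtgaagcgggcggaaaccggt
GAANNTTC was in 7.23% of all promoters and in 8 of the 10 cytosolic promoters found (Hspb1, Dnajb1, Hsph1, Bag3, Hspa8, Hspe1, Hspd1 and Dnaja1). TTCNNGAA was in 7.48% and in 4 of the 10, and either was in 13.5% of all promoters; the ER and integrated stress promoters held 0. The 7 measured genes with an element had a median difference of -0.03 log2 units, with a range of -0.17 to 0.19 and 2 above 0. The 2 measured genes whose window held none, Hsp90ab1 and Hspa4l, differed by 0.37 and 0.34, and the sequences of Cryab and Hsp90aa1 were not used here. Of the genes with an element, Hspd1 alone had an unadjusted p under 0.05.

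Hsph1, a large HSP70 relative that recharges HSP70, read -0.27, -0.08 and 0.16 in monuron cortex, against -0.35, -0.21 and -0.08 in corn oil cortex. The ranges overlapped (0.15 ± 0.13, adjusted p 0.606). Hspa4l, another member of that family, read -0.53, -0.31 and -0.34 in monuron cortex, against -0.81, -0.52 and -0.88 in corn oil cortex (0.34 ± 0.12, 1.27-fold, adjusted p 0.232); monuron array 1 and corn oil array 2 met at almost the same level. Hspa8, the constitutive HSP70, differed by -0.09 ± 0.09 (adjusted p 0.619), and its 8 probes gave -0.14 to 0.03. Hspa8, Hspd1 and Hspe1 have pseudogene copies, and binding of their probes to those was not tested.

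Dnaja1, a co-chaperone of HSP70, was the cytosolic gene with lower values on each monuron array: it read 5.01, 5.15 and 5.04 in monuron cortex, against 5.30, 5.22 and 5.19 in corn oil cortex (-0.17 ± 0.07, adjusted p 0.296). The closest arrays of the groups lay 0.04 apart. Hspb1, which encodes the small heat shock protein HSP27, read 2.09, 2.05 and 1.91 in monuron cortex, against 2.11, 1.98 and 2.02 in corn oil cortex (-0.03 ± 0.08, adjusted p 0.898). Bag3, which links HSP70 to autophagy and partners small heat shock proteins, read 3.74, 3.88 and 3.71 in monuron cortex, against 3.71, 3.99 and 3.81 in corn oil cortex (-0.06 ± 0.10, adjusted p 0.798). The 95% interval of Hspb1, -0.22 to 0.17, lay wholly below that of Cryab, 0.91 to 2.06, although both are small heat shock proteins; the difference between the genes was not tested.

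The mean of the 11 cytosolic genes, relative to corn oil, was 0.11, 0.28 and 0.33 log2 units on monuron arrays 1 to 3, against -0.04, 0.06 and -0.01 on corn oil arrays 1 to 3. All monuron arrays were above the corn oil range. Monuron array 3 was the highest for 5 of 11 genes (45.5%, against 19.9%), and without it the branch median was 0.04; without corn oil array 1 it was 0.08. The integrated stress genes averaged 0.00, 0.04 and 0.01 on monuron arrays, against 0.07, -0.03 and -0.04 on corn oil arrays, and array 3 was the highest for 1 of 9 (11.1%). Over the 33 genes it was the highest for 14 (42.4%).

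Of 37 other HSF1 targets and members of the HSP70 and HSP90 systems, 0 were called, with a median of 0.07; at an unadjusted p under 0.05, 5 were higher (13.5%, against 10.9%) and 0 lower. Hspa1a, the heat-inducible HSP70, read -2.44, -2.28 and -2.54 in monuron cortex, against -1.74, -2.07 and -2.41 in corn oil cortex (-0.35 ± 0.18, adjusted p 0.379), and Hsf1 itself differed by 0.00 ± 0.08. The groups overlapped for Hspa1a, with corn oil arrays the more spread. The smallest p-values of the list belonged to Bag2, a regulator of HSP70 (0.38 ± 0.10), Ppid, an HSP90-bound cyclophilin (0.27 ± 0.07), Hspb8, a small heat shock protein that works with Bag3 (0.44 ± 0.15), and Dnaja2, a relative of Dnaja1 (0.17 ± 0.06). Dnaja1 and Dnaja2 thus had differences of opposite sign.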

How the data were processed

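Renal cortex RNA of 6 rats was labelled with Cy3 and hybridised to Agilent 1-colour arrays, 3 per group. The authors' scanner files hold spot intensity; Agilent Feature Extraction 10.7 made them, as the submitters' processing notes state, and its processed signal was taken as deposited. The authors' deposited value table holds a ratio of that signal to 1 constant per array (within 0.0497%), and was used as an alternative. Levels are the log2 signal less the 75th percentile of each array, taken over probes that are not controls. The 1439 control spots and 55 outlier spots were left out, and 0 spots were saturated. Probes had to be detected well above background throughout 1 group or both, as 41125 were. Unversioned accessions were matched to RefSeq (GRCr8), naming 28206 probes (45.8%); 12072 of the 30229 genes tested have a symbol. The files hold no mean spot signal, so the median spot signal entered the normexp alternative (offset 50).

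The brightest probe by its mean over all 6 arrays stood for each gene. The test was limma 3.58.1 (R 4.3.3; lmFit and eBayes, two-sided), adjusted by Benjamini-Hochberg over all genes, with a threshold of 0.05; differences are monuron minus corn oil, with SE. The fit was tested on simulated data. Other settings changed the scaling, the background, the detection filter, the choice of probe, the variance model, the block, a liver score as covariate and the arrays left out. The number of arrays, 3 per group, limits the precision. The design text speaks of biological replicates, and p-values set the group difference against the spread between rats within a group. Each group was on a slide of its own, so they hold no spread between slides.

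The stress genes, the pathway and marker lists and the promoter motifs were chosen with earlier results of these data known. All members are named; of each other pathway list, every called gene and up to 4 others with the smallest p. Ern1, Eif2ak3, Atf6, Hsf1, Hspa1a, Hspa9, Atf3, Psph and the markers named were added after their values were seen. Same-numbered arrays of the groups did not deviate together (correlations -0.08, 0.11 and -0.17), and other pairs of arrays gave -0.13 to 0.22. The numbers were therefore not used as pairs in the main fit. Weak correlations of 3 arrays per group cannot show whether rats were paired. Promoter windows were found for 32 of the 37 members. Pdia6, Manf, Hspa1b, Hsp90aa1 and Cryab had none in the table used.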

Additional observations from a re-analysis of the deposited data

How the results depend on the processing

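Each result was recomputed under 22 other settings. In the report 0.949% of all genes were called higher and 0.414% lower. Those shares were 1.21% and 0.202% without scaling, 1.04% and 66.5% with scaling on spike-in probes, 1.49% and 1.05% with normexp and quantile normalization, 0.147% and 0.0418% without a detection filter, 1.43% and 0.913% with trended, robust variance, and 0.357% and 0.0695% with the liver marker score as a covariate. Without both arrays highest in liver markers limma called 0 and 0 genes (0.00% each, 4190 at an unadjusted p under 0.05). It did likewise with the replicate number as a block (replicate block: 0 and 0, 0.00% each, 4557 at an unadjusted p under 0.05). Whether those numbers pair the rats is not known. Leaving out 1 array at a time gave 0.0821% to 0.366% higher and 0.0164% to 0.0891% lower, with the lowest shares without monuron array 1; each omission moved both shares by over 1.5 times. Of the stress genes, 1 higher (Cryab) was called without scaling, and likewise with detection required on all arrays; 1 higher (Cryab) and 1 lower (Shmt2) were called with normexp and with trended, robust variance; with spike-in scaling, 1 was called higher and 22 lower. Leaving out 1 array called 0 to 1 higher. The branch medians (ER, integrated stress, cytosolic) were -0.40, -0.52 and -0.33 with spike-in scaling, and the integrated stress median was 0.05 without scaling and -0.10 without both arrays highest in liver markers. Over the single omissions they ran from 0.01 to 0.14, from -0.15 to 0.01 and from 0.04 to 0.20. With spike-in scaling, 8 uncalled genes became called with the other sign: Hspa5 at -0.32, Xbp1 at -0.47, Pdia6 at -0.35, Calr at -0.41, Chac1 at -0.40, Hyou1 at -0.22, Dnajc3 at -0.40 and Hspd1 at -0.29, with the median of all genes at -0.46. Of 726 gene values, 696 stayed uncalled and 22 became called in the same direction. No stress gene was called in the main fit, so none had a call to lose. Of the 696, 44 changed sign while uncalled, 36 of them outside spike-in scaling. The causes were not tested. Below background, signal limits what can be read of dim probes.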

Other observations

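Other lists of protein quality control were read from the same arrays. Of 30 proteasome subunits, which form the protease that degrades ubiquitin-tagged proteins, 0 were called, the median difference was 0.07, and the groups did not overlap with monuron higher for 14 (46.7%, against 15.5% of all genes). At an unadjusted p under 0.05, 2 were higher (6.67%, against 10.9%), led by Psma3 (0.20 ± 0.06, 1.15-fold). Their summed level was 624 to 631 in monuron cortex, against 594 to 600 in corn oil cortex. With spike-in scaling most genes of the array lay lower, so the proteasome values hold relative to the array's 75th percentile. Of 12 subunits of the cytosolic chaperonin CCT and of prefoldin, which fold actin and tubulin, 0 were called and the median was 0.05; Cct8 differed by 0.22 ± 0.06 and Pfdn6 by -0.23 ± 0.07. Of 14 mitochondrial chaperones and proteases 0 were called and the median was -0.08. Lonp1, the matrix protease, differed by -0.27 ± 0.07, Yme1l1, an inner membrane protease, by 0.18 ± 0.06, and Hspa9, the matrix HSP70, by -0.19 ± 0.11, beside 0.19 ± 0.06 for Hspd1.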
